A study of Rattus norvegicus with 33 samples.

Results

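Endothelial cells line every blood vessel, and the genes of this report are transcripts that mark them. They were 10 listed genes, Pecam1, Cdh5, Cldn5, Nos3, Plvap, Eng, Tie1, Esam, Emcn and Vwf, and each was read from the row of the value table (a transcript cluster, which stands for a gene on these arrays) whose only annotated symbol is that gene, with the brightest row where there were several. Of the 10, 9 had such a row among 14506 genes in all, each with 1 row, and Vwf was not analysed here. The RNA came from whole soleus, the slow postural muscle of the calf, of female Wistar rats, with 1 array per animal and 3 animals in each of 11 groups. The values are log2 levels made by the authors by RMA, so a difference of 1 is a 2-fold difference.

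The spinal cord experiment held 15 arrays in 5 groups. SCI rats had the cord completely transected between thoracic vertebrae 9 and 10 at 9 weeks of age, and at 14 weeks after transection they had the left-side implantation surgery, without a stimulator, together with cutting of the gastrocnemius tendon insertion. Their muscle was taken 21 days after that surgery. SCI-ES rats had the same transection, implantation with a stimulator and tendon cut, and from 16 weeks after transection the nerve was stimulated electrically for 1 h per day over 1, 3 or 7 days. Sham-SCI rats had the vertebral surgery alone, so SCI and Sham-SCI also differ by the hindlimb surgery. SCI-ES and SCI also differ by the implanted stimulator. The SCI-ES groups differ from each other in the time since the hindlimb surgery, and those of 1 and 3 days were taken sooner after it than SCI. The ablation experiment held 18 arrays in 6 groups of neurologically intact rats aged 22 to 23 weeks. GA rats had the gastrocnemius insertion cut, which overloads soleus, and Sham-GA rats had the same surgery without the cut, and both were taken after 1, 3 or 7 days. The study asked how paralysed soleus responds early to contraction and how an innervated, overloaded soleus compares.

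Endothelial cells are joined edge to edge by adherens and tight junctions, and a dense capillary bed of such cells feeds the oxidative fibers of soleus. Contraction and overload are known to change blood flow, shear and the release of angiogenic factors, to which these cells respond. A marker transcript measured in whole muscle reflects both how many endothelial cells the piece of muscle held and how much of the transcript each made, and fewer cells of a type and less RNA per cell cannot be told apart in bulk samples.

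The members fall into 3 kinds by role. Junction and adhesion proteins are Pecam1 (CD31, at contacts between the cells), Cdh5 (VE-cadherin, the adherens junction cadherin), Cldn5 (a tight junction claudin) and Esam (an adhesion molecule of the junction). Receptors are Eng (endoglin, a co-receptor for the TGF-beta family) and Tie1 (the partner of the angiopoietin receptor Tek). The others are Nos3 (endothelial nitric oxide synthase, which relaxes vessels), Plvap (the protein of the diaphragms of fenestrae and caveolae) and Emcn (endomucin, a mucin of capillaries and venules). Over the 33 arrays the lowest mean level among them was that of Cldn5 (transcript cluster 10756054, mean 7.17, range 6.63 to 7.71) and the highest was that of Eng (10940663, mean 9.83, range 9.05 to 10.70). The remaining clusters and means were 10940659 and 9.41 for Pecam1, 10809048 and 8.74 for Cdh5, 10909072 and 8.63 for Esam, 10879278 and 8.43 for Tie1, 10860076 and 7.55 for Nos3, 10790804 and 8.07 for Plvap, and 10819305 and 8.94 for Emcn. Levels of different clusters are set by different probes and cannot be ranked. For orientation only, 7 genes that soleus is not expected to express had means from 4.30 to 6.02, although Alb among them reached 7.09 on its highest array, above the lowest arrays of Cldn5, Nos3 (6.86) and Plvap (7.04), so that this does not show that every marker was detected.

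Factors of the ETS family, among them Erg, are known regulators of endothelial genes, so promoters were searched for the hexamer AGGAAG on both strands. Promoter windows, 250 bases before to 50 after an annotated start (RefSeq, build GRCr8), were given for 6 of the 9 members, Emcn, Eng, Nos3, Tie1, Cldn5 and Plvap. The hexamer was in 5 of the 6, against 34.51% of 33469 rat promoter windows, and the window without it was that of Cldn5. The stretches below show what was matched, with 30 bases around the match nearest the start for Eng, Tie1, Nos3 and Emcn, and the 250 bases before the start for Plvap and Cldn5, with matches in capitals. With 6 windows of 9 members, nothing about the levels was tested against them.
Eng, chr3:36332185-36332214, plus strand: gccccttctctaAGGAAGcgcatttcctgc
Tie1, chr5:137305025-137305054, minus strand: gcatcatttcctCTTCCTccccagcaccga
Nos3, chr4:11706618-11706647, minus strand: accccctccctgCTTCCTaaggaaaaggcc
Emcn, chr2:228564365-228564394, plus strand: agtagctgccaaAGGAAGagagaggggaaa
Plvap, chr16:18231280-18231529, minus strand: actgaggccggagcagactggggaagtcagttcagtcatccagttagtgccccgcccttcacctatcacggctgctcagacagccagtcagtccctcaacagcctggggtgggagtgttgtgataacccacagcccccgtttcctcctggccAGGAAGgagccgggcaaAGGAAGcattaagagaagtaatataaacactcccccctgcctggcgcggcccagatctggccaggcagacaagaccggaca
Cldn5, chr11:95718599-95718848, minus strand: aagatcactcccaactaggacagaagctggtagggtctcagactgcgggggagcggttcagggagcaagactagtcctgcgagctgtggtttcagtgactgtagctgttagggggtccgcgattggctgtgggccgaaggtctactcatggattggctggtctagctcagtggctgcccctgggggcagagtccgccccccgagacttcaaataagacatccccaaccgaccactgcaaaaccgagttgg
The GATA motif AGATAA was in 0 of the 6 windows against 11.58% of all, TATAAA in 1 (Plvap) against 14.22%, and the GC box GGGCGG in 4 (Nos3, Tie1, Cldn5 and Plvap) against 33.06%. Both strands were read for every motif, no pair of them matches the same letters although their ends may overlap, and a match describes the sequence alone.

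At 3 days of the ablation experiment, 2 libraries went against their labels over the genes that separate the groups. Over 100 genes that separated GA from Sham-GA best on the 1-day and 7-day arrays alone, members left out, the arrays labelled Sham-GA 3 days replicates 1 and 3 deviated from the 3-day mean by -0.61 and -0.56 (log2, positive toward GA), and those labelled GA 3 days replicates 1 and 3 by 0.35 and 0.84. The library labelled Sham-GA 3 days replicate 2 deviated by 0.23, with 89 of the 100 genes on the GA side, and the library labelled GA 3 days replicate 2 by -0.25, with 17 on the GA side. Over all genes the former correlated better with the other GA arrays (mean r 0.989) than with the other Sham-GA arrays (0.969), and the latter the other way round (0.979 and 0.985). Other measures did not all follow. The macrophage markers averaged 0.56 in the library labelled GA 3 days replicate 2, between the other GA arrays (0.52 and 0.65) and above Sham-GA replicates 1 and 3 (-1.05 and -0.33), and the fibroblast markers averaged -0.16 there, nearer to the GA arrays (0.50 and 0.36) than to those Sham-GA arrays (-1.63 and -1.18). In the library labelled Sham-GA 3 days replicate 2 both lists lay near the GA arrays (0.40 and 0.29). The labels were kept, and the comparisons, the order and the spread of the members that use the 3-day arrays are also given without both libraries.

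Over the 33 arrays most members moved together from animal to animal, and Cldn5 followed them less. Over the 36 pairs of members the median Pearson r across the 33 arrays was 0.66, and after each group's mean was subtracted it was 0.76 (from -0.19 to 0.94). The closest pair within groups was Pecam1 with Esam (r = 0.94), both junction proteins, followed by Cdh5 with Esam (0.90) and Cdh5 with Nos3 (0.89). Cldn5, a junction protein too, had a median r of 0.12 with the other members within groups and was lowest with Plvap (-0.19) and Eng (-0.17), while the other 8 had medians from 0.67 for Plvap to 0.86 for Tie1. Without the 6 arrays of the 3-day ablation groups (a choice made after seeing the data) the median over pairs was 0.66, and that of Cldn5 was 0.24. Both settings pool the experiments, and r was not computed in each alone, where Cldn5 may differ. In SCI-ES 1 day Cldn5 (6.63, 7.42 and 7.31) kept the order of Cdh5 (7.92, 8.97 and 8.59). In SCI-ES 7 days replicate 2 was lowest for Cldn5 (7.13) and highest for Cdh5 (9.12). These correlations are descriptions, and the values of an array share its RNA, its muscle piece and its normalization.

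**Figure D1:**
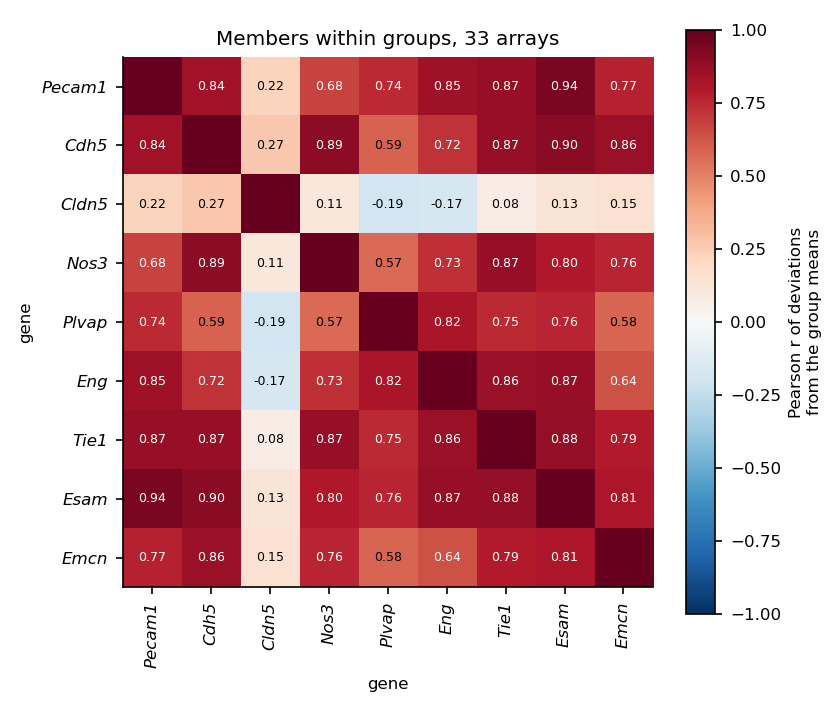
Pearson r between each pair of members, from the 33 arrays after subtracting the group means (colour and printed values, rows and columns are genes). The Cldn5 row stays between -0.19 and 0.27, and the closest pair is Pecam1 with Esam at 0.94.

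The spread between animals of a group was wide for these genes. The SD within groups was 0.23 for Cldn5, 0.29 for Nos3 and Emcn, 0.31 for Esam, 0.33 for Pecam1 and Cdh5, 0.35 for Eng, 0.36 for Tie1 and 0.44 for Plvap, which lie between the 67.3rd and the 92.1st percentile of the SDs of all genes. Without both doubted libraries the SDs ran from 0.22 (Nos3) to 0.39 (Plvap). The array with the lowest members in the spinal cord experiment was SCI-ES 1 day replicate 1, where the 9 members averaged 0.64 under their medians over the 15 arrays, and 0 of them lay above. The 3 highest were the 3 arrays of SCI-ES 3 days (0.40, 0.66 and 0.40 above), with 9 of 9 members above the median in each. Next came SCI replicate 3 (0.37) and SCI-ES 7 days replicate 2 (0.28). In the ablation experiment the 3 highest were Sham-GA 7 days replicate 3 (0.48), GA 7 days replicate 3 (0.47) and GA 3 days replicate 1 (0.43), and the 3 lowest were Sham-GA 3 days replicates 1 (-0.46) and 3 (-0.33) and the library labelled GA 3 days replicate 2 (-0.33). In no ablation group did the 3 arrays hold the 3 highest places in this way.

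**Figure D2:**
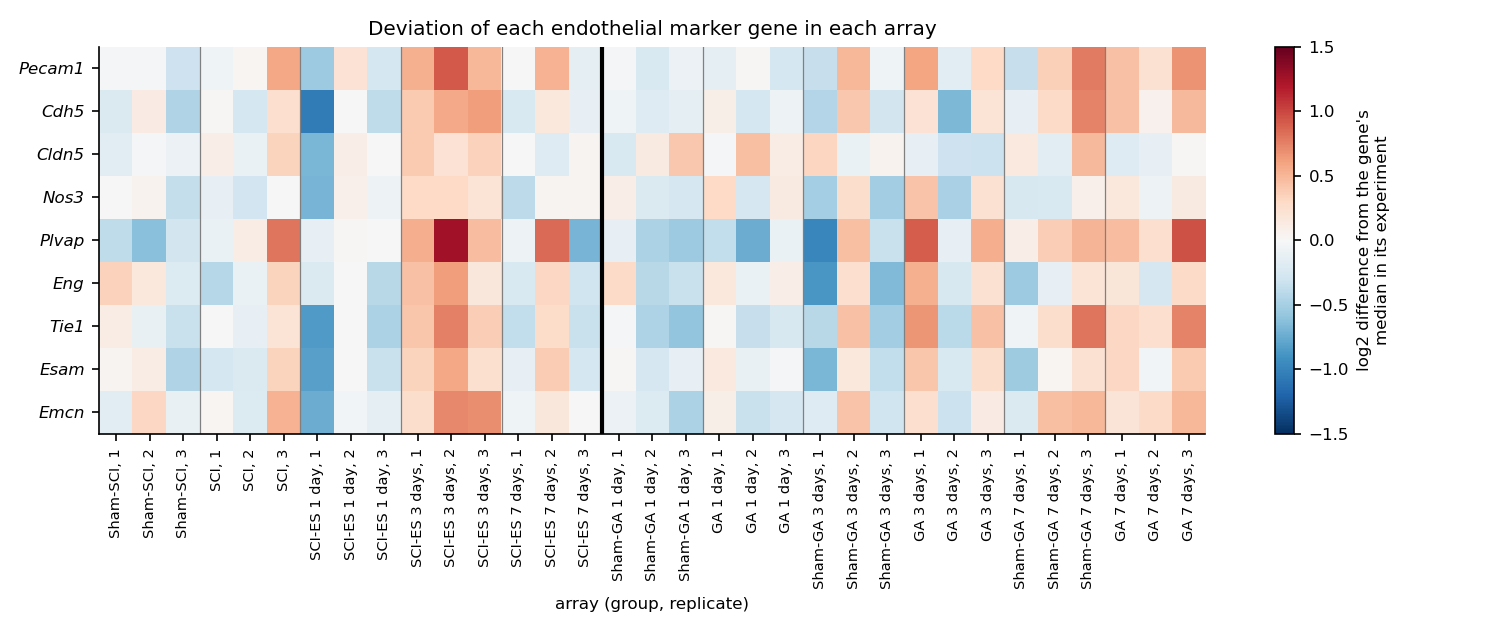
Log2 difference of each member (rows) from its median over the arrays of its experiment, for the 33 arrays (columns, by group and replicate, the thick line parts the experiments). SCI-ES 3 days is red in every member and array, and SCI-ES 1 day replicate 1 is blue in every member. The 3-day ablation arrays alternate against their labels at replicate 2 in every member except Cldn5.

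Across the 11 groups, SCI-ES 3 days had the highest mean for 7 of the 9 members (Pecam1, Cdh5, Cldn5, Nos3, Tie1, Esam and Emcn), while Eng was highest in GA 3 days (10.35 ± 0.39, SD, n = 3) and Plvap in GA 7 days (8.77 ± 0.36). The lowest mean was in SCI-ES 1 day for Pecam1, Nos3, Eng, Tie1 and Esam, in Sham-GA 1 day for Cdh5 and Emcn, in Sham-SCI for Plvap and in GA 3 days for Cldn5. This order depended on the doubted libraries. Without both, SCI-ES 3 days was highest for 4 members (Pecam1, Cdh5, Cldn5 and Emcn) and GA 3 days for 5 (Nos3, Plvap, Eng, Tie1 and Esam), and Sham-GA 3 days was lowest for Pecam1, Cdh5, Nos3 and Tie1. From highest to lowest, neighbouring groups rarely differed by more than the larger of their SDs. Of 10 steps per gene this held at 0 for Pecam1, Nos3, Eng, Tie1 and Esam, at 1 for Cdh5 (SCI-ES 3 days over SCI, by 0.53), at 1 for Emcn (SCI-ES 3 days over GA 7 days, by 0.39), at 1 for Cldn5 (GA 7 days over GA 3 days, by 0.15) and at 2 for Plvap (SCI-ES 3 days over SCI, by 0.49, and SCI-ES 1 day over Sham-SCI, by 0.40). The 18 ablation arrays also differed from the 15 spinal cord arrays, by 0.58 for Eng, 0.39 for Plvap, -0.35 for Cdh5 and -0.30 for Cldn5. The experiments differ in lesion, age and surgery, which cannot be told apart here, and no test was made.

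**Figure D3:**
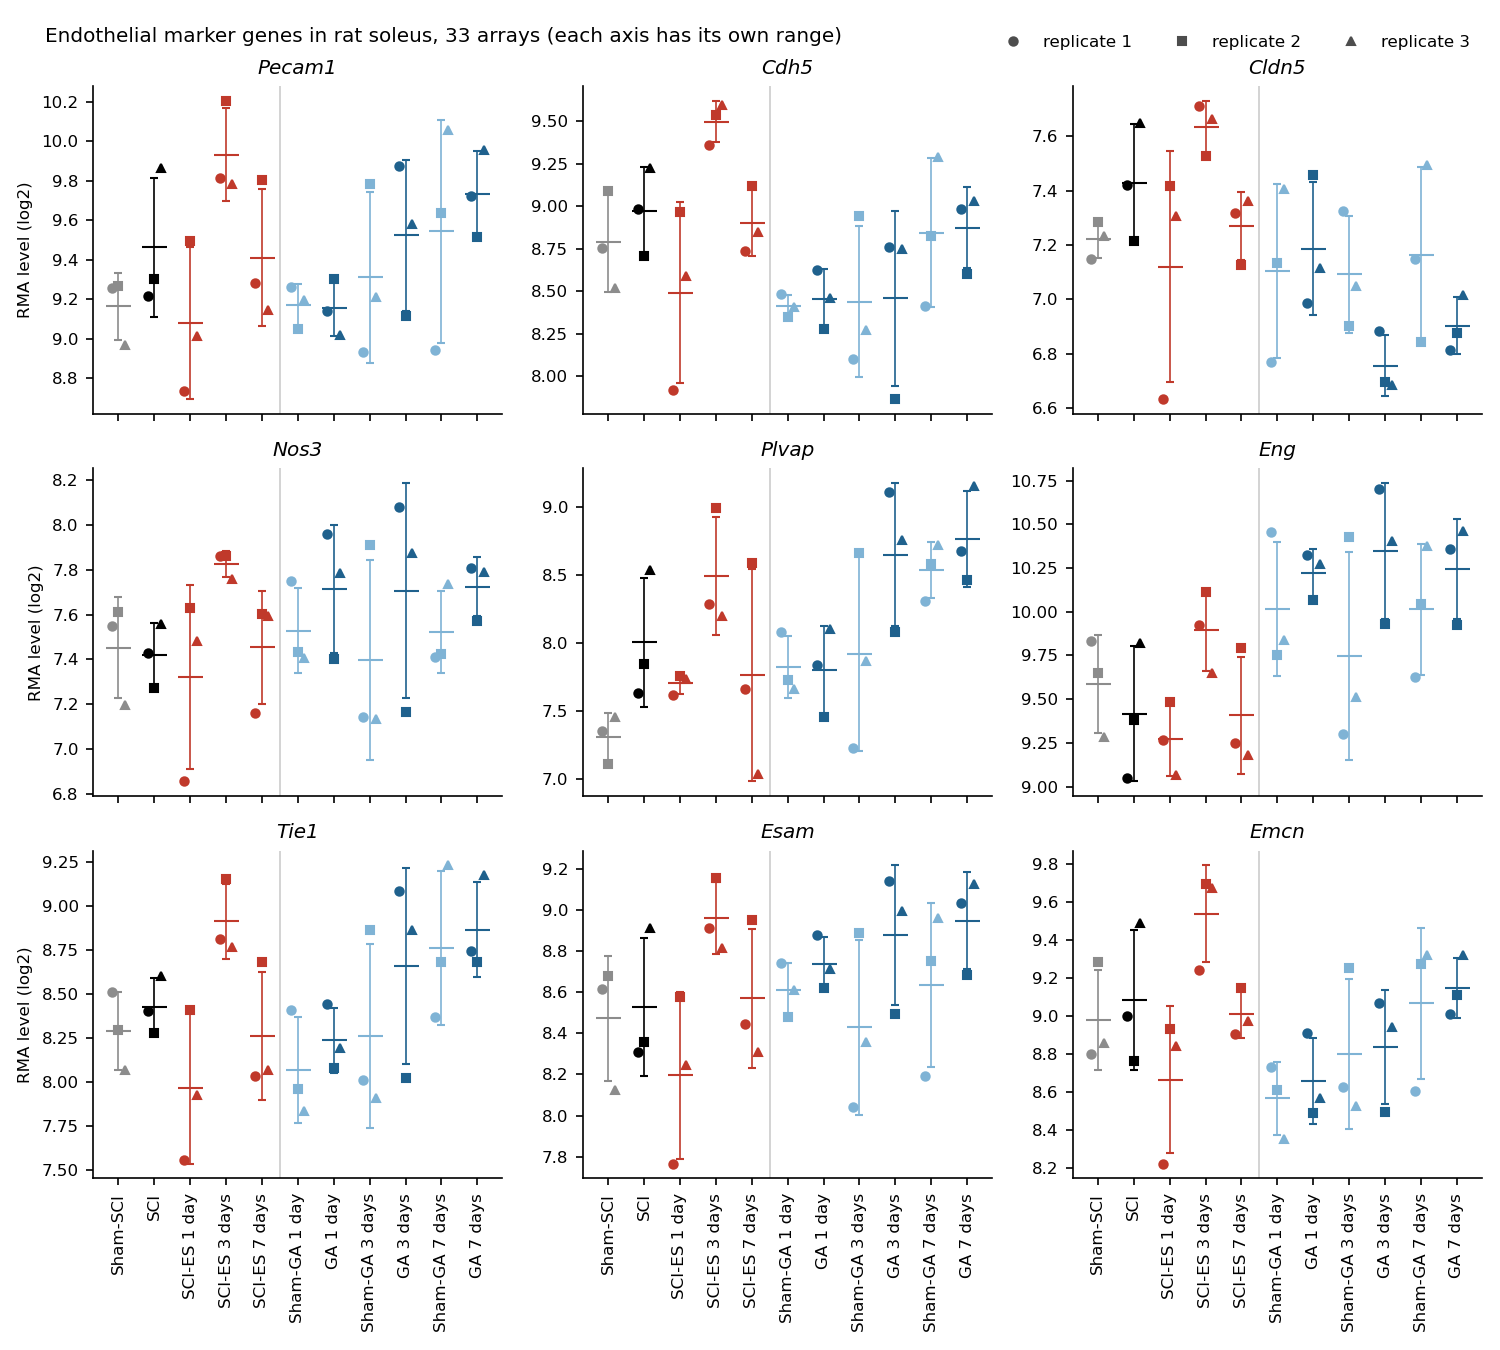
RMA level (log2, each panel with its own axis) of the 9 members in the 11 groups, with 1 point per array (symbols give the replicate number) and the group mean ± SD (n = 3). SCI-ES 3 days has the highest mean of the 5 spinal cord groups in all 9 panels.

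Group means were compared with limma, fitted to all arrays of an experiment, and a gene was called at a Benjamini-Hochberg adjusted p under 0.05 over all genes tested if it also differed by 1.5 fold or more. With all arrays, none of the 9 members was called by limma in any of the 15 comparisons. Over any difference among the groups of an experiment, 0 of the 9 members reached an adjusted p under 0.05 in the 5 SCI groups, where 0.187% of all genes did, and 0 in the 6 GA groups, where 12.3% did. At an unadjusted p under 0.05, 5 members (Pecam1, Cdh5, Plvap, Tie1 and Emcn) differed among the SCI groups against 14.2% of all genes, and 1 (Plvap) among the GA groups against 30.2%.

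SCI versus Sham-SCI left most members near their sham level, and Plvap stood out by size. Plvap, which marks the diaphragms of permeable vessels, was 7.35, 7.11 and 7.46 in the 3 Sham-SCI arrays and 7.63, 7.85 and 8.54 in the 3 SCI arrays. Every SCI array was above every Sham-SCI array, and replicate 3 was far above the other two SCI arrays. The fitted difference was 0.70 (1.62-fold, SE 0.33, limma, unadjusted p = 0.0554, adjusted p = 0.356), and 0.43 without SCI replicate 3. Plvap was the only member whose groups did not overlap, and 9.14% of all genes were separated upward in this way. The other 8 members differed by -0.17 (Eng) to 0.30 (Pecam1), the median over the 9 was 0.14 with 7 above 0, and the median over all genes was -0.02. The member median was 0.05 without SCI replicate 3, 0.04 without Sham-SCI replicate 3, 0.24 without Sham-SCI replicate 2 and 0.27 without SCI replicate 2. No member had an unadjusted p under 0.05 (14.6% of all genes did), and 0.401% of all genes were called. Of other cell types, the 8 fibroblast markers averaged -1.42 to -1.02 from their medians in the Sham-SCI arrays and -0.02 to 0.63 in the SCI arrays, and the 7 slow fiber markers 0.62 to 1.04 and -0.40 to 0.14, with 0 genes of either list called, 8 of 8 and 3 of 7 at an unadjusted p under 0.05. The 11 pericyte and smooth muscle markers overlapped (-0.16 to 0.08 and -0.08 to 0.19). What these lists contribute to the Plvap difference was not tested.

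After ES the member means lay under SCI at 1 day, above it at 3 days and close to it at 7 days, and no single member passed the adjusted test. At 1 day 9 of 9 lay under SCI, from -0.48 (Cdh5) to -0.10 (Nos3) with a median of -0.33, against -0.0036 over all genes, and 0 had an unadjusted p under 0.05 by limma (7.28% of all genes). Single arrays decided its size, since the median was -0.18 without SCI replicate 3 and -0.19 without SCI-ES 1 day replicate 1, with 1 member above 0 in each case, and -0.52 without SCI-ES 1 day replicate 2, where 5 members had an unadjusted p under 0.05. Without SCI replicate 2 that count was 3. In fits with an array left out, here and below, the share of all genes at that p was not counted, so these counts cannot be set against it. At 3 days 9 of 9 lay above SCI, from 0.21 (Cldn5) to 0.53 (Cdh5) with a median of 0.47, against -0.0060 over all genes. At 7 days the median was -0.07 (-0.24 for Plvap to 0.04 for Esam), against 0.0063 over all genes, and again 0 members had an unadjusted p under 0.05 (2.84% of all genes). The 7-day median turned to 0.10 without SCI replicate 3 and to 0.01 without SCI-ES 7 days replicate 1, and lay between -0.20 and -0.04 without each of the other 4 arrays. The 3 comparisons share the 3 SCI arrays, and in each of them 0 members and 0% of all genes were called. Stimulation, the implanted device and, at 1 and 3 days, the time since the hindlimb surgery cannot be told apart in them. Other cells differed beside the members. At 1 day the neutrophil markers did not overlap with SCI (0.05 to 1.08 against -0.27 to 0.01, 4 of 5 genes at an unadjusted p under 0.05 upward), and 3 of 3 red blood cell markers lay above SCI at an unadjusted p under 0.05. Like the members, other lists lay under SCI at 1 day. These were 8 of 8 fibroblast markers (median -0.57), 10 of 11 pericyte and smooth muscle markers (-0.28) and 6 of 7 slow fiber markers (-0.29). Of them, 0, 2 and 1 had an unadjusted p under 0.05 downward by limma. At 3 days the pericyte and smooth muscle markers did not overlap with SCI (0.28 to 0.44 against -0.08 to 0.19, 3 of 11 at an unadjusted p under 0.05 upward). Other lists lay above SCI at 3 days too. These were 7 of 7 slow fiber (median 0.34), 3 of 3 red blood cell (0.94), 5 of 5 platelet (0.55) and 6 of 8 fibroblast markers (0.10). Of each of them 0 had an unadjusted p under 0.05 by limma. Macrophage markers were 4 above and 4 below SCI. The part of these lists in the member differences was not tested.

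At 3 days the arrays of Cdh5, Nos3 and Tie1 did not overlap with SCI, and no test ranked the members by size. Cdh5, the cadherin that holds endothelial cells together, was 8.99, 8.71 and 9.22 in SCI and 9.36, 9.54 and 9.59 in SCI-ES 3 days, so that the groups did not overlap. It differed by 0.53 (1.44-fold, 95% interval 0.03 to 1.02, limma, unadjusted p = 0.0398, adjusted p = 1). Tie1 was 8.40, 8.28 and 8.60 in SCI and 8.82, 9.16 and 8.77 in SCI-ES 3 days, again without overlap, and differed by 0.48 (1.40-fold, 0.01 to 0.96, unadjusted p = 0.046, adjusted p = 1). Nos3, the source of endothelial nitric oxide, was 7.43, 7.27 and 7.56 in SCI and 7.86, 7.86 and 7.76 in SCI-ES 3 days. Its SCI-ES 3 days arrays lay close together (SD 0.059) and above every SCI array, with a difference of 0.41 (1.33-fold, unadjusted p = 0.05, adjusted p = 1). Eng was 9.05, 9.38 and 9.82 in SCI and 9.93, 10.11 and 9.65 in SCI-ES 3 days, and the groups overlapped through SCI replicate 3. It differed by 0.48 (1.39-fold, unadjusted p = 0.0484, adjusted p = 1). These were 4 members with an unadjusted p under 0.05 upward, against 1.38% of all genes, and 3 members separated upward, against 3.55%. The count rests on single arrays, since without SCI replicate 1, SCI replicate 2 or SCI-ES 3 days replicate 2 it was 0, without SCI-ES 3 days replicate 1 or 3 it was 2, and without SCI replicate 3 it was 7, with 9 of 9 members above SCI in each case.

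**Figure D4:**
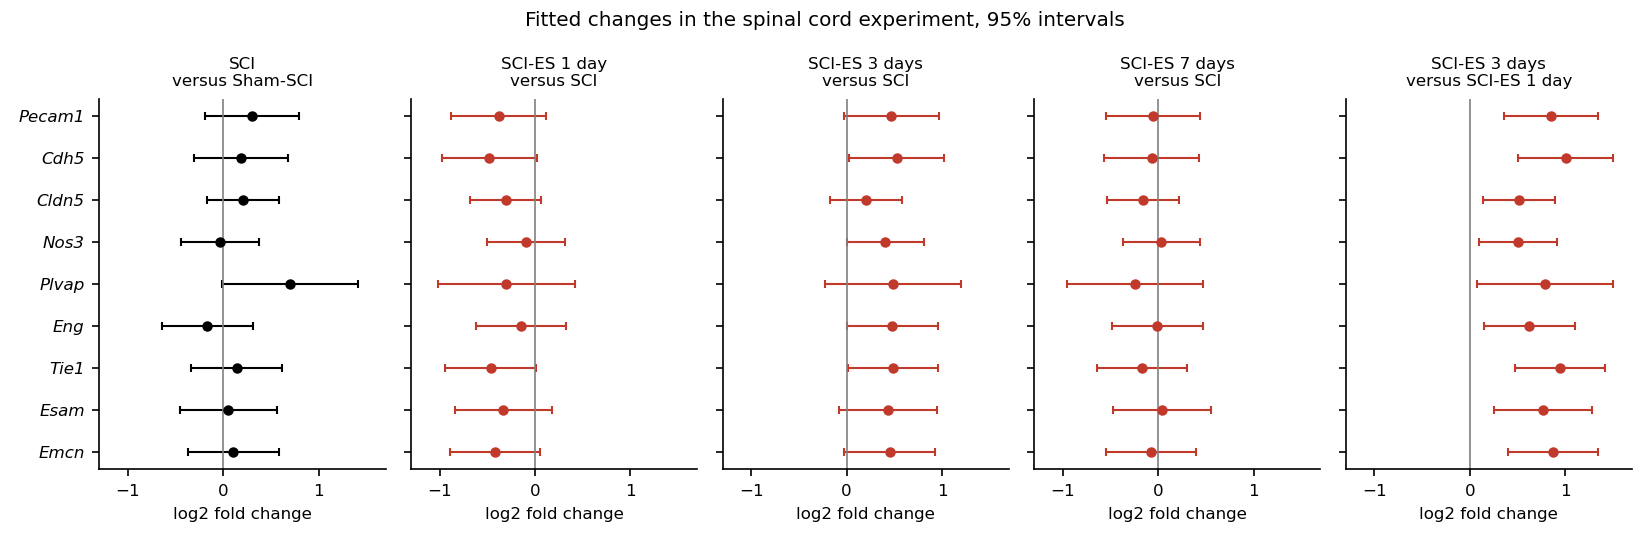
Fitted log2 fold changes of the 9 members (rows) in 5 comparisons of the spinal cord experiment, with 95% intervals from limma (3 arrays per group). Intervals for SCI-ES 3 days versus SCI clear 0 for Cdh5, Nos3, Eng and Tie1 alone. Those for SCI-ES 3 days versus SCI-ES 1 day all lie above 0, with fitted changes from 0.50 for Nos3 to 1.01 for Cdh5.

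As the 1-day and 3-day means lay on opposite sides of SCI, these stimulated groups were also compared with each other, a comparison chosen after the levels had been seen, so that its p-values are descriptions of a chosen pair. These groups also differ in the time since the hindlimb surgery. All 9 members were higher in SCI-ES 3 days than in SCI-ES 1 day, with no overlap between the groups for any of them, where 6.63% of all genes were separated upward. Cdh5 was 7.92, 8.97 and 8.59 at 1 day, and its difference of 1.01 (2.01-fold, SE 0.23) had an unadjusted p of 0.00073 and an adjusted p of 0.206 by limma. Tie1 was 7.56, 8.41 and 7.93 at 1 day and differed by 0.95 (1.93-fold, SE 0.22, adjusted p = 0.206). In both genes replicate 1 of the 1-day group was lowest and replicate 2 highest, close to the SCI level. Pecam1 was 8.73, 9.50 and 9.01 at 1 day and 9.81, 10.20 and 9.78 at 3 days, a difference of 0.85 (1.81-fold, SE 0.23, adjusted p = 0.206). Emcn was 8.23, 8.94 and 8.84 at 1 day and 9.24, 9.70 and 9.68 at 3 days, a difference of 0.87 (1.83-fold, SE 0.22, adjusted p = 0.206). The other members differed by 0.79 (Plvap), 0.76 (Esam), 0.62 (Eng), 0.52 (Cldn5) and 0.50 (Nos3), and the median was 0.79 against 0.0014 over all genes. All 9 had an unadjusted p under 0.05 upward, against 4.33% of all genes, and 0 members and 0% of all genes were called. Without SCI-ES 1 day replicate 2, 303 genes and 4 members were called, namely Cdh5 (1.24, adjusted p = 0.0195), Tie1 (1.17, 0.0222), Pecam1 (1.06, 0.039) and Emcn (1.00, 0.0499), and without any other array of these groups 0 members were called.

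Markers of vessel wall cells differed in the same direction between these groups. The pericyte and smooth muscle markers averaged -0.46 to -0.07 in SCI-ES 1 day and 0.28 to 0.44 in SCI-ES 3 days, and 10 of 11 had an unadjusted p under 0.05 upward. The neutrophil markers differed the other way, at 0.05 to 1.08 in SCI-ES 1 day and -0.15 to -0.03 in SCI-ES 3 days, with 5 of 5 below 0 and 2 at an unadjusted p under 0.05. Macrophage markers overlapped (-0.03 to 0.28 and -0.99 to 1.23), as did red blood cell markers (-0.06 to 1.34 and 0.05 to 0.47), slow fiber markers (-0.95 to 0.81 and -0.65 to 0.88) and fibroblast markers (-0.44 to 0.11 and -0.08 to 1.02). Though their arrays overlapped, 8 of 8 fibroblast markers (median 0.75) and 7 of 7 slow fiber markers (median 0.63) differed upward. Of these, 0 and 1 had an unadjusted p under 0.05 by limma. Below 0 lay 3 of 3 red blood cell markers (median -0.29) and 6 of 8 macrophage markers (median -0.03). The part of these lists in the member differences was not tested. Between 7 days and 1 day of ES, 9 of 9 members were also higher, by 0.06 to 0.41 with a median of 0.30, but 0 had an unadjusted p under 0.05 (12.1% of all genes) and 0% of all genes were called. The median was 0.12 without SCI-ES 1 day replicate 1 and 0.13 without SCI-ES 7 days replicate 2, with 7 of 9 above 0 in each case, and 0.48 without SCI-ES 1 day replicate 2, with 4 members at an unadjusted p under 0.05.

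After GA the members differed little from Sham-GA at 1 and 7 days. At 1 day the 9 differences ran from -0.02 to 0.21 with a median of 0.09 and adjusted p-values of 0.785 to 0.987 (limma), 0 had an unadjusted p under 0.05 (13.7% of all genes), and 0.0554% of all genes were called. The neutrophil markers differed more, at -0.25 to 2.41 in Sham-GA 1 day and 1.51 to 3.12 in GA 1 day. At 7 days the member differences ran from -0.26 (Cldn5) to 0.31 with a median of 0.19, the adjusted p-values were all 0.999, 0 members had an unadjusted p under 0.05 (2.63% of all genes), and 0% of all genes were called. The 7-day median turned to -0.09, with 4 of 9 above 0, without Sham-GA 7 days replicate 1, and was 0.03 without GA 7 days replicate 3 and 0.32 without Sham-GA 7 days replicate 3. At 1 day it ranged from 0.05 to 0.17 over the arrays left out.

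At 3 days of GA the members spread widely within both groups, and the outcome turned on the libraries that go against their labels. Plvap was 7.23, 8.66 and 7.87 in Sham-GA and 9.11, 8.08 and 8.76 in GA. Replicate 2 is the highest Sham-GA array and the lowest GA array, and the groups overlap. The difference was 0.73 (1.66-fold, SE 0.32, limma, unadjusted p = 0.0369, adjusted p = 0.293), and Plvap was the only member with an unadjusted p under 0.05 upward, against 8.3% of all genes. Eng was 9.30, 10.43 and 9.51 in Sham-GA and 10.70, 9.93 and 10.40 in GA, with a difference of 0.60 (adjusted p = 0.31). Tie1 was 8.01, 8.87 and 7.91 in Sham-GA and 9.09, 8.03 and 8.87 in GA, with a difference of 0.40 (adjusted p = 0.464). Nos3 was 7.14, 7.91 and 7.13 in Sham-GA and 8.08, 7.17 and 7.88 in GA, with a difference of 0.31 (adjusted p = 0.471). In each of these genes replicate 2 was the highest Sham-GA array and the lowest GA array. The median over the 9 members was 0.31, with 8 above 0, against -0.03 over all genes, and 0 members and 0% of all genes were called.

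Cldn5 went the other way, both with and without those libraries. It was 7.32, 6.90 and 7.05 in Sham-GA 3 days and 6.88, 6.70 and 6.69 in GA 3 days, so that every GA array was lower, as held for 7.64% of all genes, although the adjusted p was 0.347 (difference -0.34, SE 0.18). The gap was narrow and involved a doubted library, with 6.902 in Sham-GA replicate 2 and 6.885 in GA replicate 1. Without both libraries the difference was -0.40 (SE 0.23, adjusted p = 0.22).

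When GA 3 days replicate 2 and Sham-GA 3 days replicate 2 were both left out (a choice made after seeing the data, with 2 arrays per group), 5 members were called upward. Plvap differed by 1.39 (2.61-fold, SE 0.27, adjusted p = 0.00543), Eng by 1.15 (2.21-fold, adjusted p = 0.00972) and Tie1 by 1.02 (2.02-fold, adjusted p = 0.0149). Esam differed by 0.87 (1.83-fold, adjusted p = 0.0147) and Nos3 by 0.84 (1.79-fold, adjusted p = 0.00816). Pecam1 (0.66, adjusted p = 0.0941), Cdh5 (0.57, 0.0847) and Emcn (0.43, 0.172) were above 0 and not called. In this setting 9.39% of all genes were called upward and 17.7% in either direction, the groups did not overlap for 9 of 9 members and 68.1% of all genes, and the median over the members was 0.84 against -0.07 over all genes. Leaving out the library labelled Sham-GA 3 days replicate 2 alone gave 2 calls, Plvap (1.10, adjusted p = 0.0356) and Eng (0.94, 0.0403), with 1286 genes called, and leaving out any other array of the 3-day groups gave 0. The 8 macrophage and 8 fibroblast markers also moved without both libraries, with 4 and 7 called upward, and the pericyte and smooth muscle list with 5 of 11 called upward and 1 downward. Of the fiber genes, 3 of 7 slow and 2 of 6 others were called downward. Over all arrays the medians were 1.27 for fibroblast, 0.86 for macrophage and -0.37 for slow fiber markers, with 0 called. The part of those cells in the member differences was not tested.

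**Figure D5:**
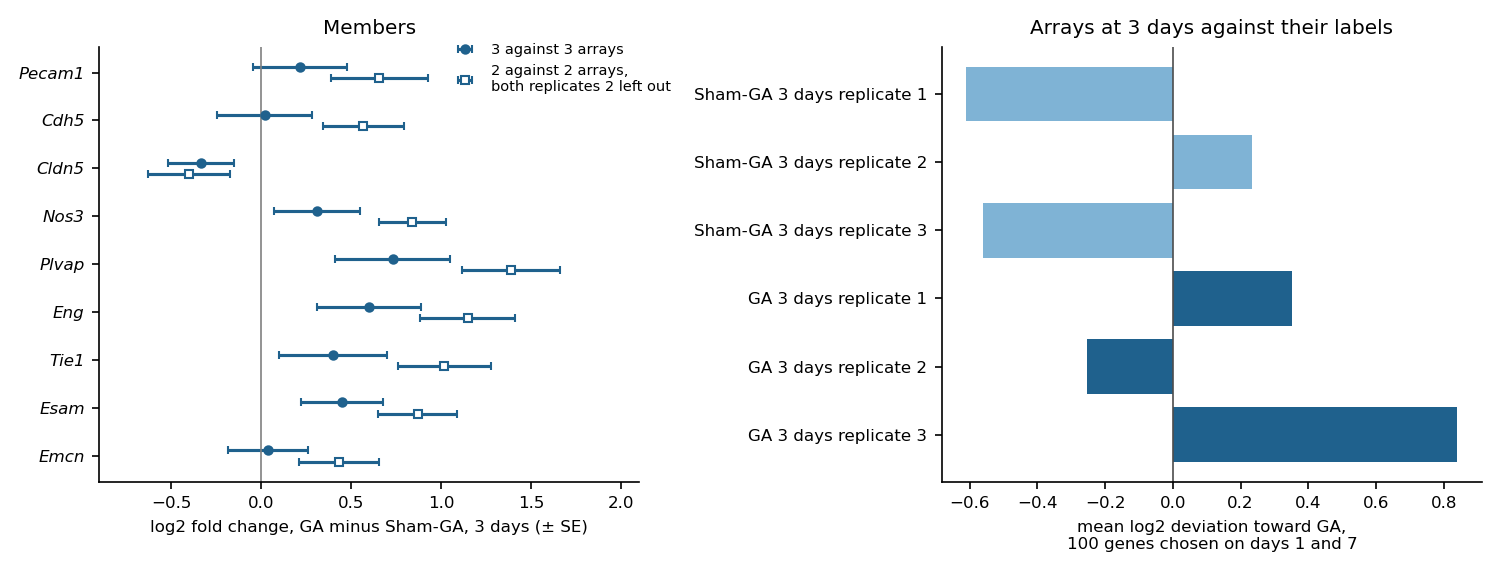
Left, log2 fold change of each member at 3 days of GA (GA minus Sham-GA, ± SE) from all arrays and with both replicates 2 left out. Right, mean log2 deviation toward GA of each 3-day array over 100 genes chosen on the 1-day and 7-day arrays, where replicate 2 of each group lies on the other group's side.

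Averaged over the 3 days, GA minus Sham-GA had a median of 0.22 over the members, with 8 of 9 above 0. Eng had the highest difference at 0.35 (SE 0.17, adjusted p = 0.268 by limma) and Cldn5 the lowest at -0.17. Esam had the only unadjusted p under 0.05 upward (0.30, SE 0.13, limma, unadjusted p = 0.0395, adjusted p = 0.24), where 7.96% of all genes had one. There were 0 calls among members and 0% among all genes. Without both doubted libraries the median was 0.41 and 5 members had adjusted p-values from 0.01 (Nos3, 0.41) to 0.0337 (Tie1, 0.43), each below the 1.5-fold minimum, so that 0 members and 6.19% of all genes were called.

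With time after surgery, several members had higher means on day 7 than on day 1, with and without the tendon cut, and none was called. In GA rats Plvap was 7.84, 7.46 and 8.10 on day 1 and 8.68, 8.46 and 9.16 on day 7, without overlap, and differed by 0.97 (1.95-fold, SE 0.32, limma, unadjusted p = 0.00833, adjusted p = 0.0605). Pecam1 was 9.14, 9.30 and 9.02 on day 1 and 9.72, 9.52 and 9.95 on day 7, also without overlap (0.58, adjusted p = 0.173). Emcn, a marker of capillaries and venules, was 8.91, 8.49 and 8.57 on day 1 and 9.01, 9.11 and 9.32 on day 7 (0.49, adjusted p = 0.173). Tie1 was the fourth member without overlap (0.63, adjusted p = 0.195), Nos3 and Eng differed by 0.01 and 0.03, and Cldn5 by -0.28. Thus 4 members were separated upward against 16.7% of all genes, 3 had an unadjusted p under 0.05 upward against 13.1%, and 0 were called where 8.6% of all genes were. In Sham-GA rats Plvap was 8.08, 7.73 and 7.66 on day 1 and 8.31, 8.58 and 8.72 on day 7, a difference of 0.71 (1.64-fold, SE 0.32, adjusted p = 0.177). Tie1 (0.69, adjusted p = 0.162) and Emcn (0.50, adjusted p = 0.177) also had an unadjusted p under 0.05 upward, making 3 members against 9.49% of all genes, and 0 members were called where 6.57% of all genes were. The medians over the members were 0.42 (GA) and 0.38 (Sham-GA) against -0.05 and -0.03 over all genes. The Sham-GA median was 0.12, with 5 of 9 above 0, without Sham-GA 7 days replicate 3 and 0.64 without Sham-GA 7 days replicate 1, while that of GA stayed between 0.33 and 0.51. In both, fibroblast markers averaged -1.69 to -1.14 (GA) and -1.67 to -1.16 (Sham-GA) on day 1 and 0.79 to 1.08 and 0.60 to 1.20 on day 7, with 6 of 8 called upward in each. Pericyte and smooth muscle markers had 4 of 11 (GA) and 3 of 11 (Sham-GA) called upward. Neutrophil markers had 5 of 5 called downward in GA (median -2.85) and 1 of 5 in Sham-GA (median -1.26), and macrophage markers 4 of 8 upward and 1 downward in GA and 3 of 8 upward in Sham-GA. The part of these lists in the member differences was not tested.

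The ES effect and the GA effect were compared directly as a difference of differences over the 33 arrays. At 1 day the ES effect minus the GA effect was below 0 for 9 of 9 members, from -0.63 to -0.28 with a median of -0.39, with adjusted p-values of 0.508 to 0.839 (limma), and 0 had an unadjusted p under 0.05 (13% of all genes, with 0.0554% called). At 3 days it was -0.24 (Plvap) to 0.54 (Cldn5), with a median of 0.10. Cldn5, at 0.21 against SCI after ES and -0.34 against Sham-GA after GA, was the only member with an unadjusted p under 0.05 upward (0.0475, adjusted p = 0.519), as were 5.22% of all genes, with 0% called. The median turned to -0.17 without GA 3 days replicate 2 and to -0.16 without Sham-GA 3 days replicate 2. Without both doubted libraries it was -0.43, with 2 members above 0 (Cldn5 at 0.61 and Emcn at 0.02) and Plvap lowest at -0.90, and the lowest adjusted p by limma was 0.193 (Cldn5). At 7 days the median was -0.24 (-0.47 to 0.10), and -0.04 without SCI replicate 3 and -0.05 without Sham-GA 7 days replicate 1, with 0 members at an unadjusted p under 0.05 (3.14% of all genes) and 0% called.

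Other endothelial genes, 71 with a row from lists of receptors, transcription factors, arterial, venous, lymphatic, capillary, sprouting and antithrombotic genes, had medians against SCI of -0.28 at 1 day, 0.19 at 3 days and 0.0065 at 7 days of ES. In SCI-ES 3 days versus SCI-ES 1 day 67 of the 71 were above 0 with a median of 0.45, and 36 had an unadjusted p under 0.05 upward against 4.33% of all genes, of which the smallest was that of Sox18, a transcription factor of vessel development (0.81, SE 0.18, adjusted p = 0.206). Among them were 14 of the 16 receptors and surface proteins, 8 of the 13 transcription factors, 6 of the 9 arterial, 5 of the 8 capillary transport, 3 of the 8 sprouting, 0 of the 6 venous, 0 of the 6 lymphatic and 0 of the 5 antithrombotic genes, and no test compared these lists. For SCI-ES 3 days versus SCI the smallest p was that of the arterial receptor Notch4 (0.48, SE 0.11, unadjusted p = 0.000649, adjusted p = 1), and for SCI-ES 1 day versus SCI that of Cav1, the coat protein of caveolae (-0.68, SE 0.18, adjusted p = 0.546). At 7 days against SCI it was that of the connexin Gja5 (-0.27, adjusted p = 1), and at 7 days against 1 day of ES that of Hhex (0.58, adjusted p = 0.244). None of the 71 was called by limma in the spinal cord comparisons. For SCI versus Sham-SCI the median was 0.12, and the smallest p was that of Tfpi, an inhibitor of coagulation (0.58, SE 0.14, adjusted p = 0.0876).

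In the ablation experiment other endothelial genes were called with time. On day 7 against day 1 of Sham-GA 8 of 71 were called, all higher, where 6.57% of all genes were called, and among them were the receptor Calcrl (0.95, SE 0.16, adjusted p = 0.00271), the arterial factor Hey1 (0.71, adjusted p = 0.00407), the ephrin Efnb2 (0.80, adjusted p = 0.0128) and the surface sialomucin Cd34 (1.05, adjusted p = 0.0153), all by limma. In GA rats 8 of 71 were called higher and 1 lower, where 8.6% of all genes were called. Among the higher were Meox2 (1.29, SE 0.20, adjusted p = 0.00073), Tek, the receptor that Tie1 partners (0.93, SE 0.19, adjusted p = 0.00445), and the adhesion molecule Vcam1 (1.15, adjusted p = 0.00477), and the lower was the Notch ligand Dll4 (-0.75, SE 0.15, adjusted p = 0.00451). Against Sham-GA the smallest p was that of Sox17 at 1 day (0.51, adjusted p = 0.238). At 3 days it was that of the lymphatic marker Lyve1 (0.98, adjusted p = 0.288, and 0.94, 0.0801 without both doubted libraries). At 7 days it was that of Vcam1 (0.76, adjusted p = 0.999). Over the mean of the days it was that of Prox1, from the lymphatic list (-0.53, adjusted p = 0.166, and -0.65, 0.00901 without both, where it was called). Over that mean 7 of 7 slow fiber markers also lay below 0 (median -0.15), and Pdpn of the lymphatic list was at 0.55. In SCI versus Sham-SCI Prox1 was lowest of its list (-1.69), where the slow fiber median was -1.02. Which cells of the muscle gave the Prox1 signal was not tested. For the ES effect minus the GA effect the smallest p was that of Sox17 at 1 day (-0.92, adjusted p = 0.106), Notch4 at 3 days (0.63, adjusted p = 0.477, and 0.41, 0.16 without both) and Gja5 at 7 days (-0.40, adjusted p = 0.999). At 3 days of GA 0 of the 71 were called over all arrays, with a median of 0.22, and without both doubted libraries 12 of the 71 were called upward and 2 downward with a median of 0.48, where 9.39% of all genes were called upward and 17.7% in either direction. The smallest p there was that of Plat, tissue plasminogen activator (1.41, adjusted p = 0.00482).

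The 8 genes whose level followed the mean of the members most closely over the 33 arrays, each member scaled to an SD of 1, were Pcdh1 (r = 0.94), Plxnd1 (0.93), Sox18 (0.92), Arhgap31 (0.91), Adgrl4 (0.90), Erg (0.90), Dock6 (0.90) and Prkch (0.89). Sox18, Adgrl4 and Erg were on the endothelial lists. After subtraction of the group means the order changed, with Arhgap31 (0.96), Plxnd1 (0.96) and Adgrl4 (0.94) first, and r was 0.90 for Pcdh1. Over the 27 arrays outside the 3-day ablation groups 7 of the 8 genes were again among the first 8, and Prkch was not. Over the 71 other endothelial genes the median r to the members within groups was 0.53, against -0.08 over 14444 genes, and 53.5% against 11.5% had an r over 0.5. Without the 3-day ablation arrays these medians were 0.53 and -0.04, and the shares 52.1% and 7.97%. The median was 0.52 for pericyte and smooth muscle markers, 0.47 for fibroblasts, 0.41 for neutrophils, 0.33 for macrophages, -0.001 for platelets, -0.10 for red blood cells, -0.14 for slow fibers, -0.34 for other fiber genes and -0.38 for the genes not expected in soleus. Without the 3-day ablation arrays it was 0.53 for pericytes and smooth muscle, 0.24 for fibroblasts, 0.32 for neutrophils and 0.35 for macrophages, and the other lists lay between -0.25 and -0.0031.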

How the data were processed

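Soleus RNA of 33 female Wistar rats was measured on Affymetrix rat arrays. The authors made the deposited log2 values with the oligo package by RMA (baseline subtraction, quantile normalization, median polish), whose versions are not given in the sources used here, and background correction could not be redone. Of 29214 rows, 15310 carried 1 gene symbol (14506 genes), 323 several and 13581 none, and only the first kind was used. Array medians ran from 6.45 to 6.54, and 3 arrays per group limit the precision. The annotation of row symbols is GEO's.

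Groups came from sample titles. limma 3.58.1 (lmFit and eBayes, R 4.3.3) estimated a mean per group from the 15 or the 18 arrays, and from all 33 for the difference of effects, over genes with a mean of at least 3. Benjamini-Hochberg adjustment ran over every tested gene, and a call needs an adjusted p under 0.05 and 1.5 fold. The p-values rest on the spread between animals of a group, pooled over all groups of the fit and moderated over genes, with 3 animals per group. The doubted 3-day libraries thus enter the spread used in every ablation comparison and in the difference of effects. Groups do not overlap (a gene is separated) where the lowest array of the higher group exceeds the highest of the lower. Array deviations are means over a list of each gene's difference from its median in the experiment. The fit was tested on simulated data. Python 3.11.15 with pandas 2.3.3, numpy 2.4.6 and matplotlib 3.10.9 was used for the rest.

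The members and all lists were chosen with earlier results of these data known. All members are named, and of the other endothelial lists, per comparison, up to 4 called genes or the gene with the smallest unadjusted p. The comparison of SCI-ES 3 days with SCI-ES 1 day and the settings without both 3-day libraries, and without the 3-day arrays in correlations, were added after seeing the data. The settings varied were the filter on low or little-varying genes, the normalization, the fold minimum, the arrays in the fit, a trended and robust prior, the mean of a gene's rows, array weights, the replicate number as a block, the methods' test across groups, and each array left out in turn. Same-numbered arrays did not deviate together in every pair of any comparison (for SCI versus Sham-SCI r was -0.34, -0.20 and -0.24), so the numbers were not taken as pairs. A description deposited with the data gives other days of ES (1, 2 and 7) and ablation of both sides, and the days of the sample titles were used.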

Additional observations from a re-analysis of the deposited data

How the results depend on the processing

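Of 354 alternative counts of members called, 338 stayed the same, and 296 of 300 alternative medians moved by less than the spread of the members' median between arrays of a group (0.34), which is larger than most of the medians, so that 7 changed sign. With the replicate block 0 members were called in every comparison, and over all genes SCI versus Sham-SCI went from 58 to 26 calls and GA versus Sham-GA at 1 day from 8 to 1. For GA 7 days versus GA 1 day 1 member was called (Plvap) when the less variable genes were dropped and 1 after a repeated quantile normalization. When only those groups were fitted 2 were (Plvap and Tie1). The share of all genes called was not counted in these settings and was 8.6% in the main fit, so these counts cannot be set against it. Array weights, whose estimate did not fully converge in some fits, called 2 members for SCI-ES 3 days versus SCI-ES 1 day (0.899% of all genes), 7 for any difference among the 5 SCI groups (24.5%), 6 at 3 days of GA (17.9%, median 0.75), 3 for Sham-GA 7 days versus 1 day (10.6%), 2 for GA 7 days versus 1 day (14%), 8 for any difference among the 6 GA groups (76.5%) and 3 for the ES effect minus the GA effect at 3 days (21.4%, median -0.47), where Tie1 turned from 0.09 to -0.69 (adjusted p = 0.0306). Without GA 3 days replicate 2 and Sham-GA 3 days replicate 2 together, 5 members were called at 3 days of GA (17.7% of all genes, median 0.84). For any difference among the 6 GA groups 4 were. The share of all genes in that test was not counted with arrays left out, so its counts cannot be set against it. Without both libraries the median of the ES effect minus the GA effect at 3 days was -0.43. With each array left out in turn, the count ranged from 0 to 4 for SCI-ES 3 days versus SCI-ES 1 day, from 0 to 2 at 3 days of GA and from 0 to 1 for any difference among the 6 GA groups, and stayed at 0 elsewhere. Where a group lost an array, its spread was taken from the pooled fit. Fits with arrays left out also hold fewer arrays, and the causes of the changed counts were not tested. Signal over background of single probes was not used here.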
